A study of Mus musculus with 17 samples.

Results

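Plakins and spectrins are 2 families of very large cytoskeletal proteins, most of which hold spectrin repeats, and 8 of their genes are described here: the plakins Plec, Macf1, Dst, Ppl, Evpl and Eppk1 and the spectrins Sptbn1 and Sptan1. The genes were taken by symbol from count tables of 20572 genes and from the lists of regions bound by Msi2, and all 8 had enough counts to be tested in both tables. They were chosen by their RNA and footprint changes on Msi2 knockdown and their Msi2-bound 3' UTR regions, so those values are given as a description and support no claim about the families. Only the ratio of footprints to RNA in control cells was not part of the choice, and it is tested. It uses the same control libraries as those changes, so it is not independent of the choice.

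Plakins tie intermediate filaments, microtubules and actin to each other and to the junctions of the cell. In basal keratinocytes plectin (Plec) and the epithelial isoform of dystonin (Dst, BPAG1e) fasten keratin filaments to hemidesmosomes, the junctions that hold the cell to its basement membrane. Envoplakin (Evpl) and periplakin (Ppl) are scaffold proteins of the cornified envelope, the protein shell of the outer epidermal cell, and spectrin tetramers of alpha and beta chains line the inner face of the plasma membrane. Msi2 (Musashi-2) is an RNA-binding protein that recognises short motifs in 3' UTRs and is known as a regulator of translation and of stem and progenitor cells.

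The cells were spontaneously immortalized mouse keratinocytes derived from the skin of newborn C57BL/6 mice, grown for 3 passages on mitomycin C-treated NIH-3T3 J2 feeder fibroblasts and later without them. Both groups received a lentivirus and puromycin at 2 ug/ml, and the control virus carried a scrambled shRNA while the knockdown virus carried an shRNA against Msi2. RNA-seq of poly(A) RNA and ribosome footprints (fragments protected by ribosomes in cells treated briefly with cycloheximide) were each measured in 3 control and 3 knockdown libraries. HITS-CLIP, in which UV light links Msi2 to RNA before its precipitation, was done in 5 libraries. They came from cells for which the labels name no shRNA. RNase was undiluted in library 1, diluted 20-fold in libraries 2 and 3, 50-fold in library 4 and 75-fold in library 5. The labels tell libraries 2 and 3 apart as Low MW and Hi MW. The labels do not state whether replicate libraries stem from different cultures, so spreads and p-values measure only how these libraries differ, which may be technical. All the cells are 1 immortalized culture type, and the number of hairpins is not given in the sources used here.

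RNA libraries held 9221566 to 26785876 reads assigned to genes and footprint libraries 512256 to 2959625. Msi2 itself had 17.1, 16.8 and 18.3 footprint CPM (counts scaled to library size) in control libraries and 4.53, 0 and 5.12 in knockdown libraries, where a count of 0 in the shallowest library allows up to 6.02 CPM. The footprint log2 fold change was -2.08 ± 0.41 (SE, edgeR quasi-likelihood test, adjusted p = 0.000285, lower in 3 of 3 libraries), whereas Msi2 RNA was 7.32 ± 1.30 CPM in control and 6.02 ± 0.796 in knockdown libraries (SD, n = 3, log2 fold change -0.29 ± 0.21, edgeR adjusted p = 0.283). All 7 keratinocyte markers were detected, with a summed RNA level of 13473 to 17117 CPM in control and 10867 to 12492 in knockdown libraries. Of 9 fibroblast markers 6, among them Col1a2, Col3a1 and Dcn, were at 0 in every RNA library, and the list summed to 4.54 to 7.55 CPM in control and 8.97 to 10.2 in knockdown libraries. Only 2 of the 9 had enough RNA counts to be tested. Of these 1 was higher in knockdown libraries and 1 was not called, beside 22% of all genes higher. The melanocyte, immune and endothelial or muscle lists summed to at most 18.6 CPM in any RNA library, against 1087 CPM or more for the 8 genes.

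On the mouse genome (mm10) the 8 genes lie on 6 chromosomes, and their spans run from 17.6 kb for Evpl to 400.8 kb for Dst. Plec (chr15:76170974-76231378) and Eppk1 (chr15:76101488-76120195) lie 50.8 kb apart, with the predicted genes Gm35087 and Gm19945 between them. Dst lies at chr1:33907888-34308662, Macf1 at chr4:123349633-123687802, Evpl at chr11:116220559-116238165 and Ppl at chr16:5086291-5132481. Sptbn1 spans chr11:30099395-30268384 and Sptan1 spans chr2:29965560-30031451. RefSeq (GRCm38.p6) start windows, from 250 bases before to 50 after a start, are described for Dst, Macf1 and Sptbn1. In them the GC box GGGCGG was searched on both strands, together with TGANTCA (the AP-1 motif) and GGAATG (the TEAD motif). The 30 bases around a GC box are shown for Dst and Sptbn1, 5′ to 3′ along the gene's strand with the box in capitals, as examples of the motif near the starts.
Dst, chr1:34011548-34011577, plus strand: gctcctcctcccGGGCGGgcgtctgcggcg
Sptbn1, chr11:30198438-30198467, minus strand: tgttaggcggggCCGCCCaactgaacattg
The first listed Dst window held 4 GC boxes and 1 of the Sptbn1 windows 1, and the boxes shown begin 35 and 198 bases before the start. The second Dst window, the other Sptbn1 window and the Macf1 window held none. Over all windows of this length 35.7% hold the motif (11714 of 32851), so its presence is common. No AP-1 match was found in these windows (7.81% of all windows hold one), and TEAD was matched only in the Macf1 window (14.7% of all).

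In knockdown cells the RNA of 6 of the 8 genes was higher and that of none lower, and the footprints of 6 were higher and of none lower; none was lower with DESeq2 or at an unadjusted p under 0.05 in edgeR either. Over all genes tested, 22% were higher and 21.7% lower in RNA (2449 and 2417 of 11117, 43.8% either way) and 8.76% higher and 7.38% lower in footprints (786 and 662 of 8969, 16.1% either way). Every knockdown library lay above every control library for 6 of the 8 genes in RNA and 5 in footprints, beside 26.8% and 15.9% of all genes (26.2% and 15.4% lay below). Since the choice of the genes used these contrasts, nothing is read from the difference. Plec, Macf1, Ppl, Sptbn1 and Sptan1 passed in both assays, Eppk1 in RNA alone, Dst in footprints alone and Evpl in neither. The median log2 fold change of the 8 genes was 0.89 in RNA and 0.84 in footprints, beside 0.0040 and -0.011 over all genes tested. Counted together, the 8 genes took 0.220, 0.236 and 0.290% of all footprint counts in control libraries and 0.515, 0.671 and 0.557% in knockdown libraries. In libraries made from whole cultures, fewer cells of a type and less RNA per cell cannot be told apart. All values below are CPM scaled by library (TMM) and serve to compare groups within a gene, since no coding length was at hand to compare levels between genes.

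**Figure D1:**
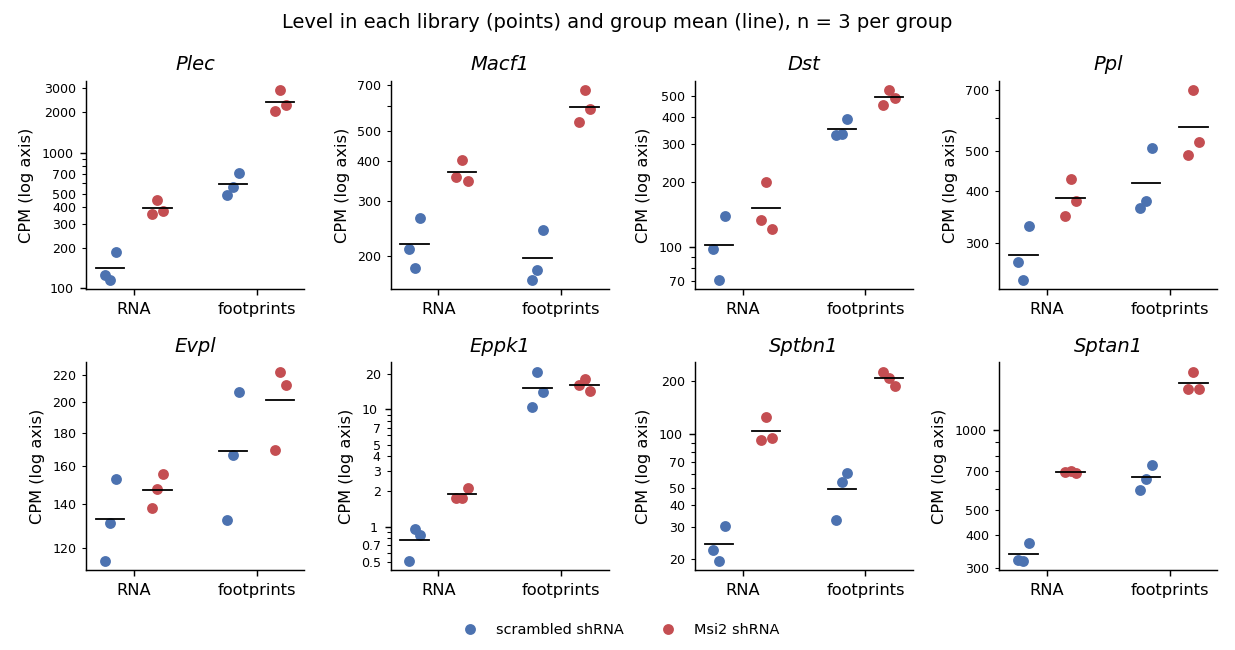
CPM (log axis, a separate range for each gene) of the 8 genes in each RNA and footprint library, with control libraries in blue, knockdown libraries in red and a line at the mean of 3. Sptbn1, Sptan1, Plec and Macf1 separate the groups in both assays, whereas the groups overlap for Evpl in both and for Eppk1 in footprints.

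Plectin, the plakin that links keratin filaments to the hemidesmosome, had 490, 557 and 712 footprint CPM in control libraries and 2053, 2888 and 2243 in knockdown libraries. Every knockdown library lay above every control library, with a log2 fold change of 2.04 ± 0.15 (SE of the fit), the 13th largest of 8969 genes. Plec RNA was 127, 116 and 185 CPM in control and 357, 451 and 374 in knockdown libraries, a 2.77-fold rise (1.47 ± 0.16). Plec alone took 0.0509, 0.0560 and 0.0719% of control footprint counts and 0.197, 0.281 and 0.220% of knockdown footprint counts. The fitted gain was larger in footprints than in RNA, by an amount that did not pass the test of the difference given below.

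Macf1, the spectraplakin that crosslinks actin filaments and microtubules, had 169, 181 and 243 footprint CPM in control libraries and 532, 672 and 588 in knockdown libraries. The groups did not overlap, and the fitted rise was 3.07-fold (1.62 ± 0.14). In RNA Macf1 went from 211, 184 and 264 CPM to 357, 404 and 346, also without overlap, but by 1.68-fold (0.75 ± 0.14). Of the 8 genes Macf1 had the largest excess of the footprint over the RNA log2 fold change, just outside the threshold of the test given below.

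Dst, the other spectraplakin of the 8 and the gene of the hemidesmosomal BPAG1e isoform, had 330, 331 and 391 footprint CPM in control and 453, 528 and 489 in knockdown libraries. These groups were apart as well, with a rise of 1.40-fold (0.49 ± 0.13). Its RNA was 98.3, 71.0 and 139 CPM in control and 133, 199 and 121 in knockdown libraries, so that the groups overlapped and the log2 fold change of 0.56 ± 0.27 did not pass. The footprint call of Dst was lost without control library 1 (log2 fold change 0.44) or knockdown library 3 (0.48). The counts add up every Dst isoform, so the epithelial, neuronal and muscle forms cannot be told apart in them.

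The cornified-envelope plakins had smaller fold changes. Ppl RNA was 271, 245 and 330 CPM in control and 350, 428 and 379 in knockdown libraries, apart by a narrow margin and 1.37-fold higher in the fit (0.45 ± 0.13). Its footprints went from 366, 380 and 509 to 489, 700 and 527 CPM and passed at the same 1.37-fold (0.45 ± 0.15), although the lowest knockdown library lay below the highest control library. Both calls depended on which libraries were kept. The RNA call was lost without control library 1 (0.41) or knockdown library 2 (0.37), and the footprint call without control library 1 (0.36) or 2 (0.39) or knockdown library 2 (0.30) or 3 (0.50), and with DESeq2 (0.45). Evpl, the partner with which periplakin pairs in the envelope, had 133 ± 19.3 RNA CPM in control and 147 ± 8.69 in knockdown libraries (SD, n = 3). Evpl footprints were 169 ± 37.4 and 202 ± 28.5 CPM. The groups overlapped in both assays, and neither log2 fold change (0.15 ± 0.12 and 0.26 ± 0.15) passed.

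Eppk1 encodes epiplakin, a plakin built of plakin-repeat domains that binds keratins. Its RNA was very low, with 0.513, 0.961 and 0.856 CPM in control and 1.77, 1.76 and 2.14 in knockdown libraries, from 10 to 57 counts per library. The RNA groups did not overlap, and the fitted rise was 2.46-fold (1.30 ± 0.39), lost without control library 1 (1.04) or knockdown library 3 (1.17). Its footprints, 9 to 62 counts per library, were 10.5, 20.8 and 14.1 CPM in control and 16.1, 18.1 and 14.3 in knockdown libraries. Those groups overlapped fully (0.02 ± 0.31). Repeated sequence within a gene can lower the number of reads placed uniquely, and the RNA libraries held 13.4 to 17.4% of reads with several alignments in control and 19.8 to 24.5% in knockdown; the part of this in the Eppk1 values was not tested.

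Of the spectrins, Sptbn1 (beta II spectrin) rose most. Its RNA was 22.2, 19.4 and 30.7 CPM in control libraries and 93.4, 125 and 95.0 in knockdown libraries, a 4.38-fold rise (2.13 ± 0.16). Its footprints were 32.9, 53.7 and 60.7 CPM in control and 225, 209 and 187 in knockdown libraries, a 4.40-fold rise (2.14 ± 0.17). No library crossed between the groups in either assay, and the rise ranked 54th of 11117 genes in RNA and 10th of 8969 in footprints. Sptan1 (alpha II spectrin), the chain that pairs with beta II spectrin, went from 323, 320 and 375 to 694, 702 and 686 RNA CPM. The 3 knockdown libraries differed little from each other, and the rise was 2.05-fold (1.03 ± 0.12). Sptan1 footprints rose from 595, 651 and 739 to 1432, 1659 and 1424 CPM, 2.28-fold (1.19 ± 0.13) and again without overlap.

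**Figure D2:**
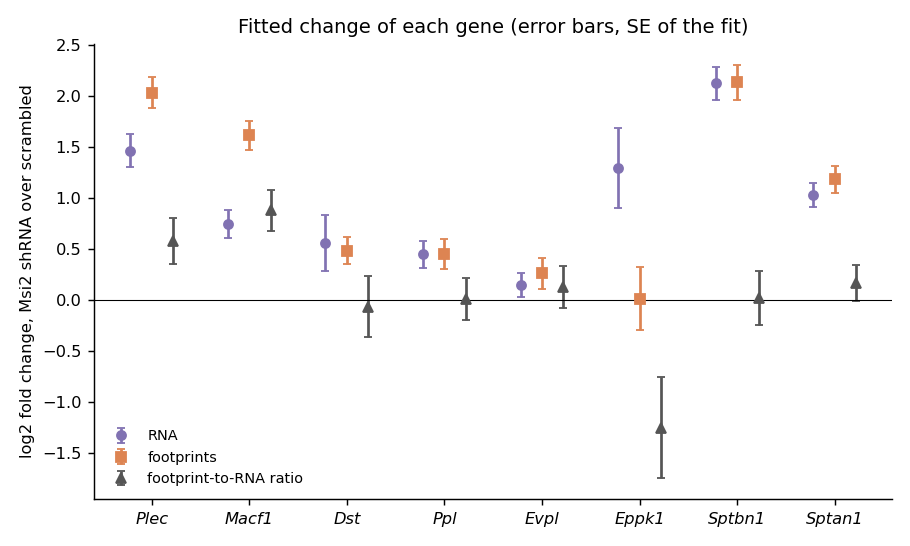
Log2 fold change, knockdown over control (vertical axis), of each gene in RNA (circles), footprints (squares) and their ratio (triangles), with bars of 1 SE of the fit. Sptbn1 and Plec stand highest in footprints (2.14 and 2.04), Macf1 shows a gap between RNA (0.75) and footprints (1.62), and Eppk1 shows a gap the other way (1.30 and 0.02).

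Among all genes, log2 fold changes moved with the span of the gene. In RNA the median was -0.18 in genes under 10 kb (12.6% higher, 32.4% lower) and 0.24 in genes of 100 kb or more (33.7% higher, 12.6% lower), the class of Dst, Macf1 and Sptbn1. In footprints the same medians were -0.06 and 0.06. With the trend on span removed, Plec was at 1.33 in RNA and 2.01 in footprints, Macf1 at 0.49 and 1.56, Sptbn1 at 1.89 and 2.06 and Sptan1 at 0.88 and 1.15, and 6 of the genes still passed in each assay.

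Because both chains of a pair are counted in the same library, their ratio does not depend on library scaling. The ratio of Sptbn1 to Sptan1 counts was 0.0704 ± 0.0107 in control and 0.150 ± 0.0240 in knockdown RNA libraries (SD, n = 3), 2.14 times as high. In footprints it went from 0.0733 ± 0.0156 to 0.138 ± 0.0168. The ratio of Dst to Macf1 footprints was 1.96, 1.83 and 1.61 in control and 0.851, 0.785 and 0.831 in knockdown libraries, so that Dst gave more footprint counts than Macf1 in every control library and fewer in every knockdown library. In RNA that ratio was 0.460 ± 0.0704 and 0.406 ± 0.0765, with overlapping groups. The ratio of Dst to Plec, the plakins of the hemidesmosome, fell in both assays, from 0.713 ± 0.0896 to 0.380 ± 0.0593 in RNA and from 0.605 ± 0.0626 to 0.207 ± 0.0212 in footprints. The ratio of Evpl to Ppl was 0.474 ± 0.0553 and 0.384 ± 0.0350 in RNA, apart, and 0.403 ± 0.0380 and 0.356 ± 0.0438 in footprints, overlapping.

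**Figure D3:**
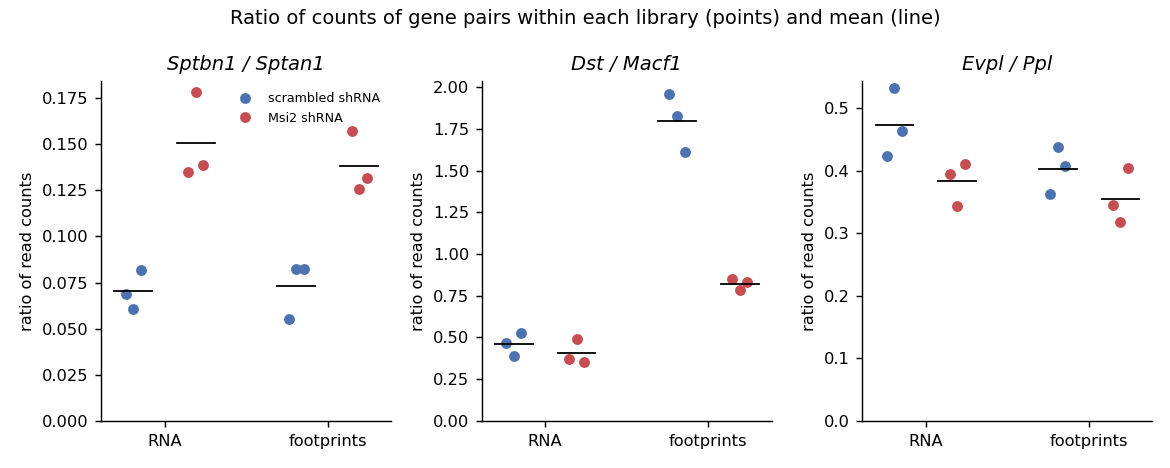
Ratio of the read counts of 3 gene pairs in each library (linear axis from 0, a separate range for each pair), by assay, with control libraries in blue, knockdown libraries in red and a line at the mean of 3. In footprints the Dst to Macf1 ratio is 1.61 or more in control and 0.851 or less in knockdown libraries, whereas in RNA the groups overlap.

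Translational efficiency, the change of footprints relative to the change of RNA, was fitted as an interaction over all 12 libraries. Macf1 was at 0.88 ± 0.20 and Plec at 0.58 ± 0.23 on the log2 scale, whereas Sptbn1 (0.02 ± 0.26), Ppl (0.01 ± 0.20), Dst (-0.06 ± 0.30), Evpl (0.13 ± 0.20) and Sptan1 (0.17 ± 0.18) were near 0. Eppk1 was at -1.25 ± 0.49. None of the 8 passed with edgeR, beside 0.129% of all 10821 genes that passed higher and 0.0739% lower (14 and 8, or 5 and 13 with upper-quartile scaling; 0.203% either way). At an unadjusted p under 0.05 there were 3, with Macf1 and Plec higher and Eppk1 lower. The shares of all genes above are for adjusted p. None is given for the unadjusted threshold, so nothing is read from this count. With DESeq2 1 passed, Macf1 at 0.83, and Macf1 also passed in edgeR without control RNA library 2 (0.93) or control footprint library 3 (1.00), without a filter (0.82) and with the span trend removed (1.10).

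In control cells the ratio of footprints to RNA differed widely among them. The choice of genes did not use this ratio but did use the same control libraries, so the p-values are not independent of the choice. Relative to the median gene, Eppk1 had 18.1 times the footprints per RNA (log2 4.18 ± 0.38, edgeR adjusted p = 1.85e-10), above 99.3% of 10549 genes; its control RNA rested on 10, 22 and 10 counts, and whether uniquely placed reads undercount its repeats differently in RNA and footprints was not tested. The p-values here test the ratio against 0 on the TMM scale, where the median gene lay at -0.06. Tested against the median gene itself, an alternative chosen after seeing the data, the count of genes called was also 6. Plec followed at 3.73 times (1.90 ± 0.18, edgeR adjusted p = 5.65e-10). Dst was at 1.63 ± 0.19 (edgeR adjusted p = 8.07e-08). Sptbn1 (0.86 ± 0.21) and Sptan1 (0.83 ± 0.15) lay close together at 1.81 and 1.77 times the median gene (edgeR adjusted p = 0.00182 and 6.89e-05). Ppl at 0.42 ± 0.16 passed at an adjusted p of 0.0484 in edgeR, a call lost without RNA library 1 (0.37) or 2 (0.31) or footprint library 2 (0.48) or 3 (0.28) and without a filter on low counts (0.49). Against the median gene its edgeR adjusted p was 0.0241. Evpl (0.19 ± 0.16, edgeR adjusted p = 0.502) and Macf1 (-0.31 ± 0.16, edgeR adjusted p = 0.0584) did not pass, although Macf1 passed without RNA library 2 (-0.44) or footprint library 3 (-0.45), with no filter (-0.24) and with the replicate block (-0.29). Against the median gene the edgeR adjusted p of Macf1 was 0.109. Of the 8 genes 6 were called, each above, beside 27.8% of all genes above and 30.6% below (58.4% either way), and the spectraplakins Dst and Macf1 stood on opposite sides of the median gene.

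**Figure D4:**
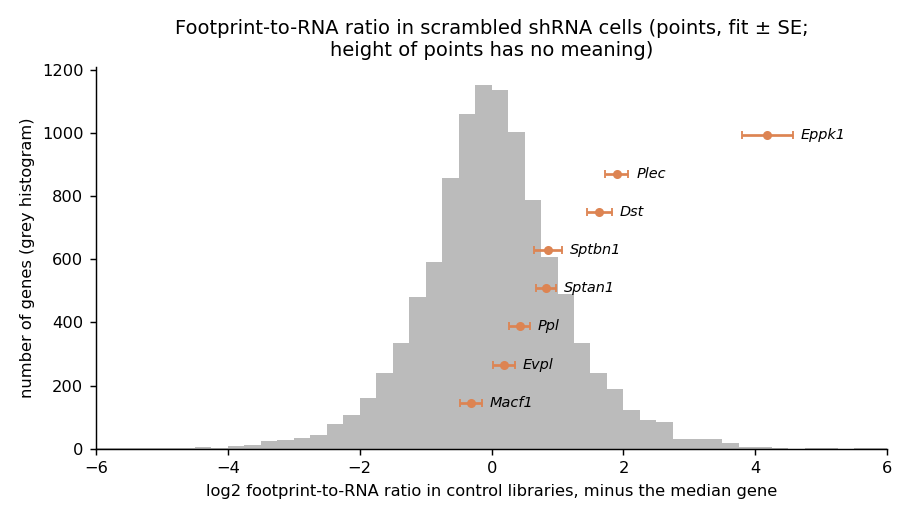
Log2 ratio of footprints to RNA in control libraries relative to the median gene (horizontal axis), as a grey histogram of all genes tested and as a point with bars of 1 SE for each of the 8, whose height in the plot has no meaning (genes beyond the ends of the axis are not drawn). Eppk1 (4.18), Plec (1.90) and Dst (1.63) are highest, and Macf1 (-0.31) is the only one of the 8 below the median gene.

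In the Msi2 CLIP data, 12 of the 2671 regions listed in 3' UTRs belonged to 6 of the 8 genes, with none listed for Evpl and Eppk1. Among genes tested in footprints 12.6% have such a region (1129 of 8969), and nothing is read from the difference, since the regions were part of the choice. Libraries 1 to 5 held 1954, 17760, 24566, 26026 and 24518 reads in the listed regions, the first being made with undiluted RNase. Sptan1 had the most reads of the 8 genes, 144 in 2 regions, more than 88.7% of the 1199 genes with a region. The larger, chr2:30031132-30031321, held 0, 41, 23, 28 and 24 reads in libraries 1 to 5 and the other, chr2:30031324-30031451, ends at the last base of the gene. Together they made up 0.253% of listed reads in library 2 (95% Wilson interval 0.189 to 0.339) and 0.114% in library 3 (0.0789 to 0.165). In library 1, 0 reads allow up to 0.196% by the same interval and 0.154% by a floor of 3 counts. Intervals and floors cover counting error only.

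Sptbn1 had 87 reads in 3 regions within 1081 bases of its 3' end. The widest, chr11:30099443-30100005, covered 563 bases with 1, 11, 13, 19 and 17 reads. Plec had 33 reads in 2 regions, of which chr15:76170972-76171186 lies at the very end of the gene (0, 3, 12, 4 and 4 reads). Ppl had 35 reads in 2 regions, and its larger one, chr16:5086448-5086710, held 0, 6, 7, 6 and 4. Macf1 had 24 reads in chr4:123350318-123350461 and chr4:123350639-123350827, 685 to 1194 bases before its end. The listed regions of these 5 genes all lay within 1194 bases of the annotated end.

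Dst differed from them in the distance to the end of the whole gene span, the end used for all of these genes. Its single region, chr1:34183258-34183354, held 10 reads, the least a listed region can have here, and lay 125.3 kb before the annotated end of the gene. That position is 23.0 kb past the second start listed in RefSeq, and the deposited list ties it to 2 transcripts. The distance to the ends of those 2 transcripts was not measured, so no difference in place within a 3' UTR is read from it. The list of regions in all parts of genes added a region of 10 reads in Ppl (chr16:5102554-5102678) and a region of 14 reads in Sptan1 (chr2:30008160-30008258), 16.3 and 23.2 kb before the end.

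**Figure D5:**
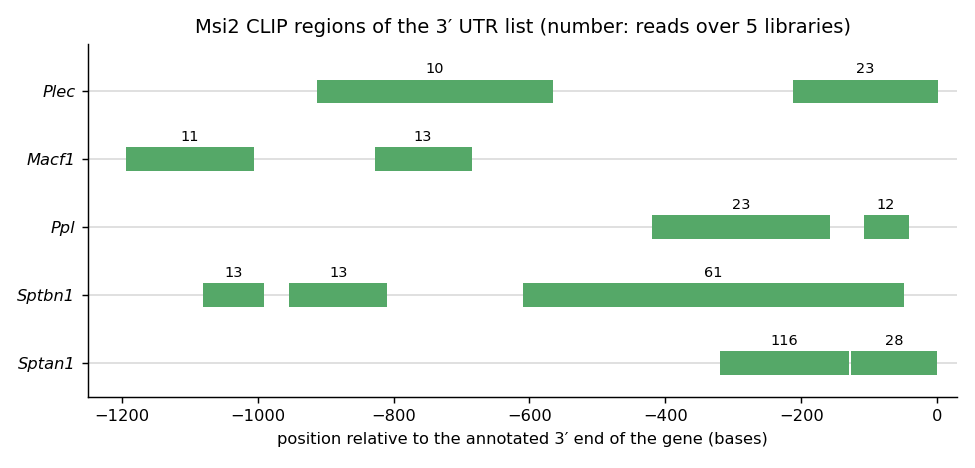
Regions bound by Msi2 in the 3' UTRs of 5 of the genes, drawn as bars by their position in bases relative to the annotated 3' end of the gene at 0, each with its reads summed over 5 libraries. The regions of Sptan1 (116 and 28 reads) and the widest of Sptbn1 (61) hold the most reads, and all lie within 1194 bases of the end.

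Over the genes described here, the number of bound reads and the size of the footprint change did not follow the same order throughout. Both were part of the choice of the genes, so nothing is read from the order. Sptan1, with 144 reads, had a footprint log2 fold change of 1.19, whereas Sptbn1 with 87 reads was at 2.14 and Plec with 33 at 2.04. Macf1 with 24 reads was at 1.62 and Ppl with 35 at 0.45. Dst with 10 reads was at 0.49, and Evpl and Eppk1, with 0 reads in listed regions, were at 0.26 and 0.02. Reads in a region also depend on how much of the RNA a cell holds, and the part of that was not tested.

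Of 74 other genes that work with plakins and spectrins, drawn up by role with earlier results of these data known, 25 were higher and 18 lower of 65 tested in RNA (38.5 and 27.7%), and 15 higher and 11 lower of 60 tested in footprints (25.0 and 18.3%), beside 22 and 21.7% of all genes in RNA and 8.76 and 7.38% in footprints. Nothing particular to a list is read from its counts. Dsp (desmoplakin, the plakin of desmosomes) was at a log2 fold change of -0.10 in RNA and -0.04 in footprints and did not pass. Among spectrin-repeat proteins and actin crosslinkers 8 of 10 were higher in RNA and 6 of 9 in footprints (22 and 8.76% of all genes), and the others were not called. Filamin A (Flna), which crosslinks actin filaments, rose by a log2 of 1.43 ± 0.15 in RNA and 1.51 ± 0.14 in footprints (edgeR adjusted p = 1.86e-06 and 7.56e-11).

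The partners of plectin and BPAG1e in the hemidesmosome were mostly higher. Of 9 genes 6 were higher and 2 lower in RNA, and 6 higher and 1 lower in footprints (all genes 22 and 21.7%, and 8.76 and 7.38%), and the laminin-332 chains Lama3 (1.40 in RNA, 1.22 in footprints) and Lamb3 (0.95 and 0.96) had the smallest p-values. The keratin Krt5 was lower in both (-0.62 and -0.40) and Krt14 in RNA (-0.39). Proteins of microtubule ends, with which the spectraplakins work, were higher in 5 and lower in 1 of 12 in RNA, and higher in 1 and lower in 1 in footprints. Gas2l1 (0.69 in RNA, -0.30 in footprints) and Clasp1 (0.64 and 0.18) were called in RNA alone. Clip1 was higher (0.41 and 0.52) and Camsap3 lower (-0.30 and -0.60) in both assays.

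Of the membrane skeleton that spectrin builds with ankyrins, adducins and protein 4.1, 1 of 13 genes was higher and 4 lower in RNA. In footprints 1 of 11 was lower, and the other genes were not called. Over all genes 22% were higher and 21.7% lower in RNA, and 8.76% and 7.38% in footprints. Epb4.1l4b (-0.54 ± 0.12) and Tmod3, which caps actin filaments (-0.55 ± 0.14), fell in RNA (edgeR adjusted p = 0.00130 and 0.00385), and Mpp1 fell in footprints (-0.51 ± 0.16, adjusted p = 0.0271). The calpains, proteases that cleave alpha II spectrin, and their inhibitor split evenly in RNA, where calpastatin (Cast) rose by 0.51 and Capn1 fell by 0.48. In footprints Capns1 (-0.35, edgeR adjusted p = 0.0641) and Capn2 (0.34, adjusted p = 0.0656) had the smallest p-values of the 4 genes and did not pass.

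The genes that join Evpl and Ppl in the cornified envelope were mostly lower. Of 9 tested in RNA 7 were lower and 2 not called, with a list median of -0.87, and in footprints 5 of 7 were lower, beside 21.7% and 7.38% of all genes. Tgm3, a transglutaminase that crosslinks the envelope, fell by 2.63 on the log2 scale and involucrin (Ivl) by 0.87 in RNA, and Cnfn (cornifelin) fell by 1.05 in footprints. In the desmosomal plaque 2 of 6 genes were higher and 2 lower in RNA (22 and 21.7% of all genes). In footprints 1 was higher and 3 lower (8.76 and 7.38% of all genes), and Perp was lower in both assays (-0.72 and -0.54).

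The genes whose level followed that of Plec most closely over the libraries were Hspg2 (perlecan), Flna and Tns3. The lower of their Pearson correlations over 6 RNA and 6 footprint libraries was 0.995, 0.994 and 0.991. For Sptbn1 they were Hnrpdl, Vcan (versican) and Abcc1 (0.989, 0.987 and 0.986). Vcan rose by 2.12 in RNA and 1.86 in footprints, close to Sptbn1 in size. The others changed less: Hnrpdl by 0.65 in RNA and 0.33 in footprints, where it was not called, and Abcc1 by 0.92 and 0.93. All of these libraries fall into the 2 groups, and 277 and 242 of the 8917 genes compared passed 0.9 with Plec and Sptbn1. The correlations share libraries and depth and are given with no test.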

How the data were processed

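The authors deposited RNA and footprint values as raw read counts per gene, taken over coding sequence and summed over its isoforms. Per the submitters' processing notes they were made on mm10, with TopHat, HTSeq and DESeq named and no versions. The deposited CLIP lists hold counts of reads per region and library and a signal, the total height of the region. For CLIP the notes name cutadapt and Novoalign, and the peak caller is not given in the sources used here. RNA reads assigned to no gene (32.3 to 35.2% of a library), of ambiguous assignment (0.175 to 0.228%) or with several alignments stayed out of library sizes and tests.

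Counts were analysed with edgeR 4.0.16 in R 4.3.3 by its robust quasi-likelihood test, after TMM scaling and filterByExpr (minimum count 10, total 15), with p-values adjusted over all genes tested by the method of Benjamini and Hochberg and called under 0.05. RNA and footprints were fitted apart, translational efficiency as an interaction over 12 libraries, and the baseline ratio over the 6 control libraries, given minus the median gene. DESeq2 1.42.0, upper-quartile factors, filtering at 10 CPM in 3 libraries or not at all, a replicate block, removal of the trend on gene span (loess, span 0.5) and leaving out each library were alternatives. The filter at 10 CPM and the removal of the span trend were not run for the baseline ratio. Each SE of an edgeR fit was taken as the absolute fitted log2 value divided by the square root of the quasi-likelihood F statistic. The scripts were tested on simulated data.

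The 8 genes and all lists were chosen with earlier results of these data known. Named genes are the 8, Msi2, the 2 genes of each list with the smallest RNA p and the 2 with the smallest footprint p, and the 3 genes with profiles most like Plec and Sptbn1 (log2 CPM with a prior count of 0.5). Krt5, Krt14, the predicted genes beside Plec and the markers were named outside this rule, after their values were seen. Gene positions, from RefSeq GRCm38.p6, matched 19008 symbols. Some genes and a sequence that this rule would name are not reported here.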

Additional observations from a re-analysis of the deposited data

Results flagged for a closer look

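Sptbn1 took 0.2047% of the listed CLIP reads in library 1, the library made with undiluted RNase, and 0.0845, 0.0733, 0.0884 and 0.110% in libraries 2 to 5. Library 1 stood apart from the other 4 by 0.72 of the whole range. Its value rests on 4 of 1954 reads, with a 95% Wilson interval of 0.0796 to 0.525% that covers 3 of the other 4 libraries. Chance marks about 1 in 20 groups in this way.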

How the results depend on the processing

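Of 423 values of the 8 genes under alternative settings, 368 kept their direction and side of the threshold, 16 lost the call, 9 gained it and 30 changed sign. The number of genes higher ranged from 4 to 6 in RNA and from 4 to 6 in footprints when 1 library was left out. For translational efficiency it was 1 with DESeq2, without a filter and with the span trend removed, and 0 to 1 with 1 library left out; for the baseline ratio it was 5 to 6. Bound regions numbered 4 at a height of 20 or more and 1, in 1 gene, with a read required in all 5 CLIP libraries, and 7 to 11 when 1 CLIP library was left out. Sign changes were near 0: Eppk1 footprints were at -0.0078 with upper-quartile factors and between -0.25 and 0.45 with 1 library left out. Translational efficiency of Ppl and Sptbn1 was -0.035 and -0.037 with DESeq2, -0.048 and -0.043 with upper-quartile factors, -0.048 and -0.042 without a filter and -0.077 and -0.068 at 10 CPM, and that of Dst 0.15 with the span trend removed. With 1 library left out it ranged from -0.20 to 0.14 for Ppl, -0.26 to 0.20 for Sptbn1, -0.42 to 0.12 for Dst and -0.067 to 0.25 for Evpl. The cause was not tested. Over all genes DESeq2 called 481 higher and 373 lower in footprints, against 786 and 662, and 60 and 38 in translational efficiency, against 14 and 8, where no filter gave 46 and 78; with 1 library left out footprint calls ranged from 463 to 885 higher and 350 to 749 lower, and those of translational efficiency from 0 to 94 and 0 to 149. RNA calls over all genes ranged from 1708 to 2721 higher and 1840 to 2765 lower with 1 library left out. With the replicate block, 6 genes passed in RNA, 6 in footprints, 0 in translational efficiency and 7 in the baseline ratio. Over all genes that setting called 2042 higher and 1932 lower in RNA, 789 and 705 in footprints, and 1 and 2 in translational efficiency. Pairing was checked on log2 CPM minus the mean of each gene within its group, so the correlations are of deviations. On that scale same-numbered control and knockdown libraries correlated at 0.0814, -0.32 and -0.272 in RNA, which does not support pairing them. The same deviations of same-numbered RNA and footprint control libraries correlated at 0.107, 0.182 and 0.0853, each best with its own number, a hint from the data and not the design. Footprint depth limits Eppk1, and reads per region limit CLIP shares.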
